A study of Mus musculus with 18 samples.

Results

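CpG-dense sites away from promoters were examined in mouse embryonic stem (ES) cells. They are the autosomal CpGs with over 20 listed CpGs in the 250 bp to each side (counting the CpG), that lie further than 2000 bp from every transcript start of the GENCODE M21 annotation and have at least 5 reads in all 18 libraries. The rule used sequence, annotation and depth, and no methylation value. It kept 71065 CpGs, which is 4.99% of the 1424423 CpGs with that depth and 13.7% of the 518413 CpGs that meet the density and distance conditions at any depth. They are called distal CpG-dense sites here.

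The assay was enhanced reduced representation bisulfite sequencing, in which restriction fragments (here of MspI, BfaI and MseI) are treated with bisulfite and sequenced, so that unmethylated cytosines read as thymines. The host ES cells carry a knockout of Dnmt1, and the vector pPyCAGIP with a DNMT1 insert was put back into them, followed by selection with puromycin. The 6 groups of 3 libraries express WT DNMT1 or DNMT1 with tryptophans replaced by alanine, namely W465A, W796A, both together (W465A/W796A), W464A/W465A and the triple W464A/W465A/W796A. The knockout, the vector and the selection are shared by all 6 groups. Cells given the vector without an insert were not analysed here, so the level that remains without any DNMT1 is not given. The libraries are labelled biological replicates and several stable lines were made per group, but whether each library is a line of its own is not stated, and neither is the amount of DNMT1 protein in each line. The p-values measure the spread between these libraries.

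CpG islands are stretches rich in CpG. Most lie at promoters and stay free of methylation, while those elsewhere include coding exons of developmental genes, promoters missing from annotation and CpG-rich parts of transposable elements, and are methylated more often. DNMT1 copies methylation onto the newly made strand after replication. W464 and W465 lie in its RFTS domain, which has been studied as a reader of methylated histone H3, and W796 lies in its BAH1 domain, which has been studied as a reader of methylated histone H4.

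The sequences below are 200 bp stretches of the GRCm38 plus strand, taken from the RefSeq genome of that build, with every CpG in capitals. They were chosen to show how different distal CpG-dense sites are. The stretch in Cilp2, a cartilage matrix gene, is from the longest run of such sites inside a gene and lies in a coding exon. The stretch beside Isl2, a LIM-homeodomain transcription factor gene, starts at the base after the end of that gene. The stretch in Rims1, a gene of the presynaptic active zone, lies in a coding exon and was almost free of methylation in every library.
Cilp2, chr8:69882045-69882244: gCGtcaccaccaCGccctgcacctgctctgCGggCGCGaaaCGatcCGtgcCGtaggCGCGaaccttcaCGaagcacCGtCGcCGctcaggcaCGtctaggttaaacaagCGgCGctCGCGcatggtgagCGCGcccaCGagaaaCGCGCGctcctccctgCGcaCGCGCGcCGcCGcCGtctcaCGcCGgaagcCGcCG
Isl2, chr9:55546181-55546380: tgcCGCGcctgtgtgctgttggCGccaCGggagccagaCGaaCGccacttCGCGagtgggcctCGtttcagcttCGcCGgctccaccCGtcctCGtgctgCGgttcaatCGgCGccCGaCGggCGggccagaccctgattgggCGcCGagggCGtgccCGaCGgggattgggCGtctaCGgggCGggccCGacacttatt
Rims1, chr1:22533681-22533880: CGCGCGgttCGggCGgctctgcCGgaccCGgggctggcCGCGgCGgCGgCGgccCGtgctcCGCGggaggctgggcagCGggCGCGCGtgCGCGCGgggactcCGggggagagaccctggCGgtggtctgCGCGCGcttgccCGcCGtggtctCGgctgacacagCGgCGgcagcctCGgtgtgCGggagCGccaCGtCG

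The other 3 stretches were highly methylated with WT DNMT1. The stretch near Rpia is from a window with one of the largest falls in W464A/W465A, and the stretch in a coding exon of Zc3h13 is from the window that kept the most methylation there. The stretch near Fam84a is from the window with the largest rise of W465A/W796A over W465A.
Near Rpia, chr6:70695761-70695960: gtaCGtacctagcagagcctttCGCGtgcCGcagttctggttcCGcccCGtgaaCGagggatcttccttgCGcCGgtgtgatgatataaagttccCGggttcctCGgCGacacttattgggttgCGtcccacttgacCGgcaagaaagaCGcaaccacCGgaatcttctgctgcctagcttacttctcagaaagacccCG
Zc3h13, chr14:75331750-75331949: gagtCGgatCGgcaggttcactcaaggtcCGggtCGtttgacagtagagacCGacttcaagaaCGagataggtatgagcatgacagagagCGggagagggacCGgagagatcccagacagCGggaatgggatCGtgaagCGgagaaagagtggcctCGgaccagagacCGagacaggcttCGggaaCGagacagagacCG
Near Fam84a, chr12:14600001-14600200: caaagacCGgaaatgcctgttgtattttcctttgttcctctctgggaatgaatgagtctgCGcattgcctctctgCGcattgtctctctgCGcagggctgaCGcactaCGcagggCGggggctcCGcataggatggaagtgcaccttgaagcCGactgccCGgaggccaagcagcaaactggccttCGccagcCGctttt

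The stretches with little methylation hold the most CpGs, 37 in Rims1, 36 in Cilp2 and 28 beside Isl2, with a GC content of 81.5%, 71% and 70.5%. The methylated stretches hold 17 near Rpia, 16 in Zc3h13 and 12 near Fam84a, with a GC content between 56.5% and 58%. These stretches were picked as examples, and not by the same rule. Those in Rims1, in Cilp2 and beside Isl2 are from a window or runs chosen for holding many sites, in Rims1 also for a low level. Those near Rpia, in Zc3h13 and near Fam84a are from windows chosen by methylation level or difference. Their CpG counts thus depend on the choice, and no relation is drawn from them. The relation of level to CpG density over all distal CpG-dense sites is given with the density classes.

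Of the distal CpG-dense sites 39850 (56.1%) lay inside an annotated gene and 31215 between genes. Coding exons held 30.7% of them and introns 21.1%. Lower-case reference sequence, which marks repeats, held 23279 (32.8%), but the share was 52.9% between genes and 16.9% inside genes. Among dense CpGs within 2000 bp of a start 2.82% were repeat-masked, and among CpG-sparse autosomal CpGs at the same distance as the distal sites 15.0%. The median distal CpG-dense site had 28 CpGs around it and lay 9603 bp from the nearest start. They formed 8069 runs with gaps of at most 250 bp, and the 704 runs with 20 or more sites held 32.5% of them. The sequence around a site (the CpG with 50 bp on either side) recurred at another listed CpG for 14.9% of the sites, for 44.6% of the masked sites and for 0.364% of the unmasked sites. Reads from such copies may have been placed at any of them, and how the authors placed them is not given in the sources used here. Few sites lay in the recognition sequence of MspI, CCGG: 0.183%, against 15.4% of the CpGs that meet the density and distance conditions at any depth.

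The median coverage of the distal CpG-dense sites ranged from 15 to 37 reads per library, with WT replicate 2 the deepest. Level here means methylated reads as a percent of all reads at a CpG, averaged over CpGs with each CpG counted once. No value from a conversion control was used. All of these are ratios of read counts, and reads without molecular identifiers are not independent molecules, so the errors given are spreads between libraries.

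With WT DNMT1 the distal CpG-dense sites were at an intermediate level, and every enzyme with a changed W465 had less methylation at the mean. The WT libraries had 29.2%, 42.7% and 31.03%, and the W796A libraries 24.0%, 40.5% and 32.6%. The W465A libraries had 15.5%, 9.36% and 9.92%, and the W464A/W465A libraries 7.66%, 9.36% and 7.56%. The W465A/W796A libraries had 29.5%, 21.5% and 25.4%, and the W464A/W465A/W796A libraries 8.13%, 11.9% and 9.84%. All libraries of W465A, W464A/W465A and W464A/W465A/W796A lay below all WT libraries. W796A overlapped WT, and W465A/W796A overlapped WT by its highest library.

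**Figure D1:**
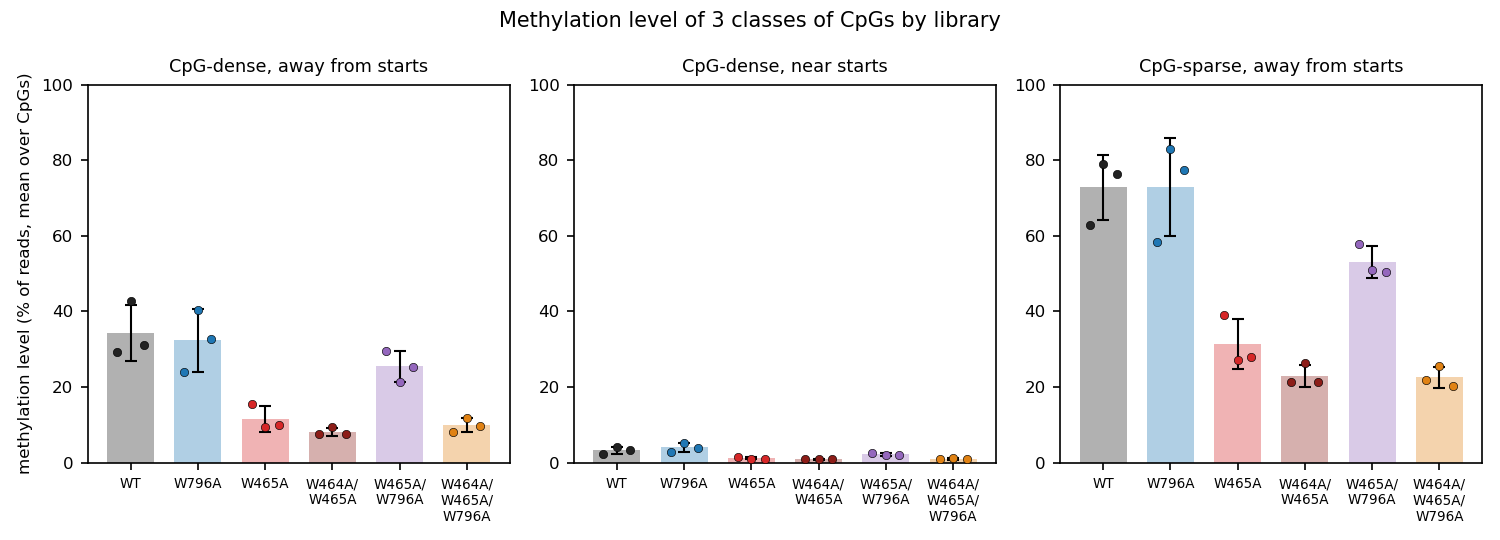
Methylation level (percent of reads, mean over CpGs) of 3 classes of CpGs in each library. Points are libraries, bars are group means and error bars are SDs (n = 3). The distal CpG-dense sites in the left panel lie between dense CpGs near starts, at 4.07% or less in every group mean, and CpG-sparse distal CpGs, at 22.6% or more.

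The mean was 34.3% ± 7.35 (SD, n = 3) with WT, 32.4% ± 8.25 (SD, n = 3) with W796A, 11.6% ± 3.40 (SD, n = 3) with W465A and 8.19% ± 1.01 (SD, n = 3) with W464A/W465A. The mean with W465A/W796A was 25.5% ± 4.03 (SD, n = 3), and that with W464A/W465A/W796A was 9.97% ± 1.91 (SD, n = 3). As shares of the WT mean, W465A kept 33.8%, W464A/W465A 23.9%, W464A/W465A/W796A 29.1%, W465A/W796A 74.2% and W796A 94.3%. Against WT the differences were -22.7, -26.1 and -24.3 percentage points in W465A, W464A/W465A and W464A/W465A/W796A, each with an exact two-sided permutation p of 0.1, the smallest that 3 libraries against 3 allow. They were -8.85 points in W465A/W796A (exact permutation p 0.2) and -1.95 points in W796A (exact permutation p 0.8).

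The groups form a factorial, so each substitution was also tested over the backgrounds it occurs in, with libraries permuted within backgrounds and Benjamini-Hochberg adjustment over all 9 tests of the mean level. W464A/W465A lowered the level by an average of 24.3 points (difference -24.3, adjusted exact permutation p 0.0225). Adding W464A to W465A made a change of -9.45 points (adjusted exact permutation p 0.0225). W465A changed it by -14.8 points (adjusted exact permutation p 0.045). W796A changed it by 4.56 points over 3 backgrounds, which did not pass (exact permutation p 0.137, adjusted 0.176). The W465A call did not hold with every library left out. Its adjusted p was 0.06 to 0.09 without WT replicate 2 or any 1 of W796A, W465A or W465A/W796A replicates 2 and 3. The differences there were -14.8 to -12.7 points. It was also 0.06 without W464A/W465A replicate 1 or 3, which do not enter the W465A effect. There the difference (-14.8 points) and the exact permutation p of 0.015 stayed the same, and only the adjustment over the 9 tests changed. The added W464A had an adjusted p of 0.06 without W464A/W465A replicate 1 (-9.31 points) or replicate 3 (-9.29 points).

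These averages join unlike values. W465A differed from WT by -22.7 points (standard error 4.67, log2 ratio -1.56), but W465A/W796A from W796A by -6.90 points (standard error 5.30, log2 ratio -0.35), where libraries overlapped. The added W464A made a difference of -3.40 points without W796A and of -15.5 points with it. W796A made a difference of -1.95 points in WT, 13.9 points in W465A (log2 ratio 1.13, libraries not overlapping) and 1.78 points in W464A/W465A. Added up, the single differences fell short of W465A/W796A by 15.8 points, with a standard error of 7.07. That departure of the mean was not tested, because free permutation does not keep the single effects.

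Compared with other CpG classes, the distal CpG-dense sites stood between dense CpGs near starts and sparse distal CpGs in points. In proportion no test told them apart in the main setting. The 438417 dense autosomal CpGs within 2000 bp of a start had 3.34% ± 0.923 (SD, n = 3) with WT and 0.923% ± 0.104 (SD, n = 3) with W464A/W465A. The 702708 sparse autosomal CpGs (20 or fewer within 250 bp) away from starts had 72.8% ± 8.58 (SD, n = 3) and 23.0% ± 2.90 (SD, n = 3). The W464A/W465A effect at distal CpG-dense sites minus that near starts was -21.5 points, and that of the added W464A -8.70 points, both with an adjusted exact permutation p of 0.04 over 8 tests. For W465A it was -12.8 points, with an adjusted exact permutation p of 0.05, which did not pass. The added W464A did not pass without W465A replicate 1 (-7.81 points) or without W464A/W465A replicate 1 (-8.59), replicate 2 (-8.96) or replicate 3 (-8.56).

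Against sparse distal CpGs the effects were smaller in points by 15.8 for W465A, 25.8 for W464A/W465A and 10 for the added W464A (adjusted exact permutation p 0.0133 each). On the log2 scale, which compares proportional loss, no test against either class passed in the main setting. Some passed under other settings, as given below. The nearest in the main setting was the added W464A against dense CpGs near starts, at -0.15 with an adjusted exact permutation p of 0.05. The W796A effect on the log2 scale was larger by 0.20 at distal CpG-dense sites than at sparse CpGs, with an adjusted exact permutation p of 0.0795. W465A kept 33.8% ± 9.90 (SD, n = 3) of the WT mean at the distal CpG-dense sites, 36.5% ± 8.52 (SD, n = 3) at dense CpGs near starts and 43.2% ± 9.09 (SD, n = 3) at sparse distal CpGs.

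Inside and between genes the group means lay within 3.52 points of each other, while masked and unmasked sites differed in opposite ways. Intergenic sites were the higher in all 3 libraries of WT (by 0.612 to 5.67 points), W465A (0.131 to 0.919), W465A/W796A (1.89 to 3.16) and W464A/W465A/W796A (0.623 to 2.02), and in 1 of 3 libraries each of W796A and W464A/W465A. These level differences within libraries were not tested. Intragenic sites had 32.8% ± 7.29 (SD, n = 3) with WT and 8.26% ± 0.901 (SD, n = 3) with W464A/W465A. Intergenic sites had 36.3% ± 7.67 (SD, n = 3) and 8.11% ± 1.15 (SD, n = 3). None of the 8 tests of the effects between the 2 places passed. The nearest was the added W464A, at -0.99 points with an adjusted exact permutation p of 0.16. For W464A/W465A the intergenic minus intragenic effect was -1.31 points (adjusted exact permutation p 0.85). At unmasked sites alone it was 9.76 points (adjusted exact permutation p 0.04), so the intergenic loss was the smaller there in points. On the log2 scale it was -0.074 (adjusted exact permutation p 0.13), which did not pass. Unmasked intergenic sites had 14.8% ± 3.69 (SD, n = 3) with WT and unmasked intragenic sites 29.1% ± 6.73 (SD, n = 3). Masked sites had 55.3% ± 12.3 (SD, n = 3) between genes and 50.9% ± 12.1 (SD, n = 3) inside genes. Within genes the WT level was 31.9% ± 7.54 (SD, n = 3) in coding exons, 36.1% ± 7.69 (SD, n = 3) in introns and 22.2% ± 5.17 (SD, n = 3) in untranslated exons.

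**Figure D2:**
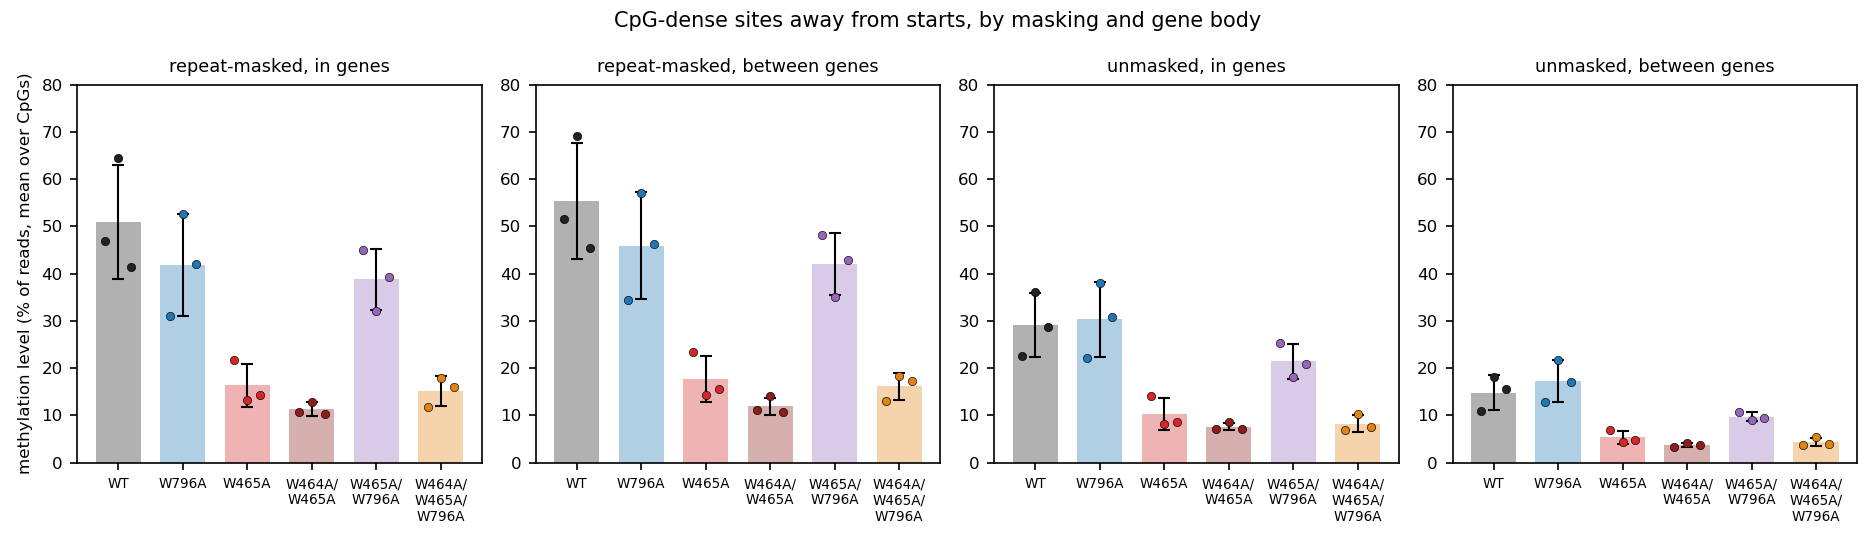
Methylation level (percent of reads, mean over CpGs) of distal CpG-dense sites split by repeat masking and by gene body. Points are libraries, bars group means and error bars SDs (n = 3). Masked sites have 50.9% in genes and 55.3% between genes with WT, while unmasked sites are lower between genes than in genes, 14.8% against 29.1% with WT.

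Masked sites had the higher level in every library. The masked sites of the WT libraries had 50.1%, 67.8% and 44.3%, and the unmasked sites 18.97%, 30.5% and 24.6%. With W796A the masked sites had 33.4%, 55.7% and 45.0% and the unmasked sites 19.4%, 33.0% and 26.6%. With W465A/W796A the masked sites had 47.3%, 34.2% and 41.9% and the unmasked sites 20.9%, 15.2% and 17.4%. In W464A/W465A the masked sites were between 10.6% and 13.7% and the unmasked sites between 6.03% and 7.22%. The W464A/W465A effect was larger at masked than at unmasked sites by -16.8 points and that of the added W464A by -8.81 points (adjusted exact permutation p 0.02 each over 8 tests), and on the log2 scale no test of masked against unmasked sites passed (smallest adjusted exact permutation p 0.48).

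The ratio of the masked to the unmasked level differed between libraries of 1 group. It was 2.64, 2.22 and 1.80 in WT, 1.72, 1.69 and 1.69 in W796A, and 2.27, 2.24 and 2.41 in W465A/W796A. W465A had 1.92 to 2.05, W464A/W465A 1.74 to 1.90 and W464A/W465A/W796A 2.06 to 2.63. WT replicate 3 thus lay nearer to the W796A libraries than to WT replicates 1 and 2, and inside the range of W464A/W465A. The W796A difference from WT was -9.34 points at masked sites (standard error 9.57) and 1.65 points at unmasked sites (standard error 5.17). Averaged over the 3 backgrounds of W796A, masked minus unmasked was 2.43 points for W796A, with an adjusted exact permutation p of 0.606.

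Copied sequence showed this spread between WT libraries most. The 4668 sites whose surrounding sequence occurs at 100 or more listed CpGs had 44.2% ± 16.7 (SD, n = 3) with WT, with libraries from 29.2% to 62.2%. They had 32.1% ± 10.3 (SD, n = 3) with W796A, 38.5% ± 7.92 (SD, n = 3) with W465A/W796A, 14.6% ± 3.56 (SD, n = 3) with W464A/W465A/W796A and 10.2% ± 1.18 (SD, n = 3) with W464A/W465A. The 60502 sites with a single copy had 31.96% ± 6.41 (SD, n = 3) with WT and 31.7% ± 7.86 (SD, n = 3) with W796A, so that the mean W796A difference there was -0.29 points. Copied minus single-copy sites passed a test for the added W464A alone, at -5.74 points (adjusted exact permutation p 0.04 over 8 tests). This was lost without W465A replicate 1 (-5.44 points), any 1 of the W464A/W465A libraries (-5.85 to -5.61) or any 1 of the W464A/W465A/W796A libraries (-6.28 to -5.17).

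The most frequent sequences around distal CpG-dense sites are shown as 30 bases of the plus strand at a copy on chromosome 1, with the CpG in capitals. All their sites were repeat-masked. No repeat annotation was used, so no family is named.
Shared sequence 1, chr1:4085340-4085369: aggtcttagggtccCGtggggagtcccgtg
Shared sequence 2, chr1:4559769-4559798: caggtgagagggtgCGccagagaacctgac
Shared sequence 3, chr1:9175547-9175576: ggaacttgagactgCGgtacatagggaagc

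Shared sequence 1 surrounded 651 of the sites, and its WT libraries had 38.7%, 63.1% and 23.6%. Its W796A libraries had 16.2%, 34.5% and 20.4%, its W465A/W796A libraries 43.2%, 27.3% and 38.9% and its W464A/W465A libraries 5.80%, 8.17% and 5.70%. WT replicate 3 lay inside the range of W796A, and the W465A/W796A libraries lay inside the range of WT. Shared sequence 2 surrounded 541 sites, with 38.1% ± 14.6 (SD, n = 3) in WT and 6.73% ± 0.918 (SD, n = 3) in W464A/W465A. Shared sequence 3 surrounded 476 sites and kept more: it had 56.9% ± 19.4 (SD, n = 3) in WT, 25.3% ± 7.76 (SD, n = 3) in W465A, 19.8% ± 1.22 (SD, n = 3) in W464A/W465A and 57.7% ± 10.6 (SD, n = 3) in W465A/W796A. Sites of a shared sequence were matched on 32 bases with the CpG in the middle, a shorter stretch than that used for the copies. They may share reads, so each sequence is taken as 1 measurement per library.

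Within the distal CpG-dense sites the level fell with CpG density and rose with distance from a start. With WT it was 47.3% ± 9.21 (SD, n = 3) at the 43225 sites with 21 to 30 CpGs, 22.9% ± 6.83 (SD, n = 3) at the 14801 sites with 31 to 40 and 4.25% ± 1.82 (SD, n = 3) at the 13039 sites with over 40. At unmasked sites alone these were 40.1%, 13.9% and 4.07%. With W464A/W465A the 3 classes had 11.5%, 4.89% and 1.11%, and with W465A/W796A 35.4%, 16.4% and 2.84%. As shares of the WT mean, W464A/W465A kept between 21.3% and 26.1% over these classes. The densest class with W796A had 5.35% ± 1.81 (SD, n = 3), which overlapped the WT libraries.

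**Figure D3:**
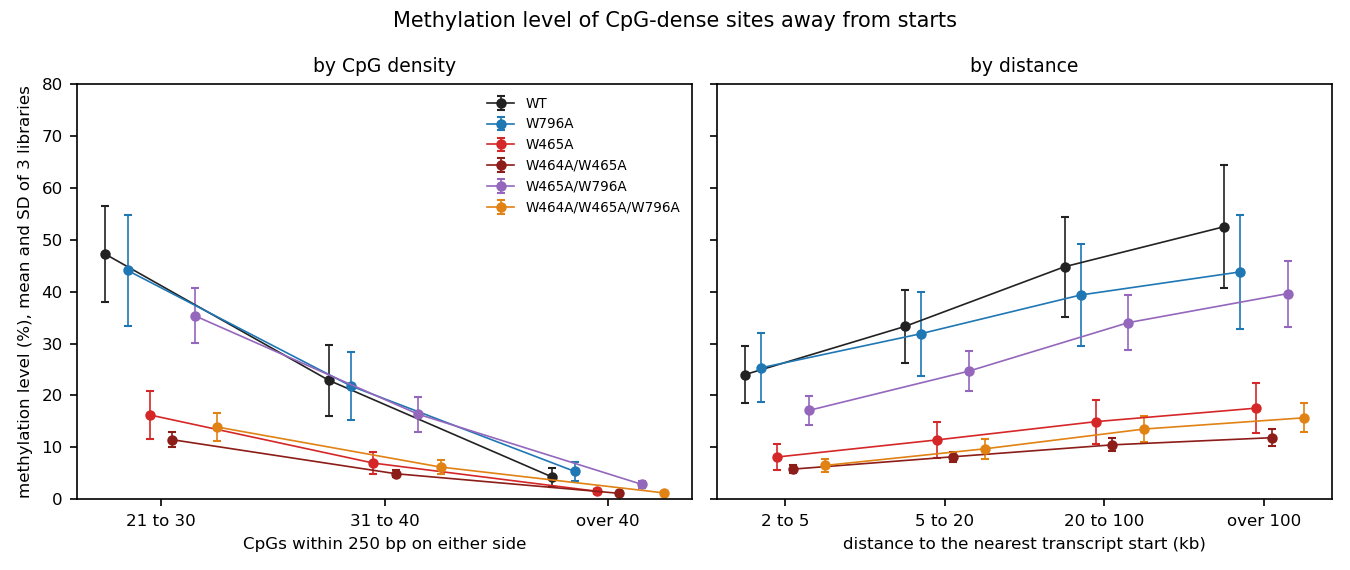
Mean methylation level (percent) of distal CpG-dense sites by CpG density (left, CpGs within 250 bp on either side) and by distance to the nearest transcript start (right, in kb). Points are group means and error bars SDs of 3 libraries. With WT the level runs from 47.3% down to 4.25% over the density classes and from 24.0% up to 52.6% over the distance classes, and every group has the same order of classes.

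The 21833 sites between 2 and 5 kb from a start had 24.0% ± 5.50 (SD, n = 3) with WT, the 27852 sites between 5 and 20 kb had 33.3% ± 7.12 (SD, n = 3), the 17887 sites between 20 and 100 kb had 44.8% ± 9.65 (SD, n = 3) and the 3493 sites beyond had 52.6% ± 11.9 (SD, n = 3). At unmasked sites the same classes had 21.7%, 25.5%, 29.97% and 39.1%. Values changed little across the limits of the rule. Sites with 21 CpGs, just inside, had 57.9% and CpGs with 20, just outside, 59.0% with WT. Sites up to 200 bp beyond the limit of 2000 bp from a start had 19.7% and dense CpGs up to 200 bp within it 19.5%.

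The sites were of mixed kinds already with WT. By the pooled WT libraries 35.4% of them (25122) were at 10% or less, 13.3% (9444) were over 80%, and the others lay between. Of the sites at 10% or less 3.28% were repeat-masked, against 57.6% of those over 40% and up to 80%. With W464A/W465A 71.1% ± 2.74 (SD, n = 3) of the sites were at 10% or less, against 39.1% ± 5.39 (SD, n = 3) with WT and 44.1% ± 3.01 (SD, n = 3) with W465A/W796A. Sites at 80% or more made up 15.3% ± 6.82 (SD, n = 3) with WT, 3.66% ± 1.76 (SD, n = 3) with W465A/W796A and 0.0666% ± 0.0333 (SD, n = 3) with W464A/W465A. At single CpGs these shares also move with coverage, which differed between libraries.

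Sites over 80% in the pooled WT libraries had a median of 63.0% in W465A/W796A, 30.6% in W465A, 23.1% in W464A/W465A/W796A and 19.2% in W464A/W465A, a description since WT values chose them. By chromosome the WT mean ran from 25.9% on chromosome 11 to 41.5% on chromosome 10. On the X chromosome, which the rule leaves out, 2083 CpGs with the same density, distance and depth had 43.4% ± 11.1 (SD, n = 3) with WT and 8.85% ± 1.59 (SD, n = 3) with W464A/W465A.

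Regional differences were tested in windows of 1 kb with at least 3 usable CpGs, in which methylated and all reads were summed over distal CpG-dense sites only. There were 6957 such windows among 160689 windows of all classes, which held 68518 of the sites and had 143 reads per library at the median. Calls needed an adjusted p below 0.05 together with pooled group levels 10 points or more apart. Lower than WT were 5124 windows (73.7%) in W465A, where 81.7% of all windows were called lower. In W464A/W465A 5250 (75.5%) were lower, against 83.4% of all windows, and in W464A/W465A/W796A 5239 (75.3%), against 83.6%. No window of distal CpG-dense sites was called higher than WT in these mutants. These shares were below the background, and the windows of dense CpGs near starts were called lower in W464A/W465A in 11.9%. With WT 92.6% of the dense CpGs near starts were at 10% or less (mean of 3 libraries).

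Masked windows were called lower more often than unmasked windows, 2912 of 2954 (98.6%) against 2338 of 4003 (58.4%) in W464A/W465A. The masked share was near that of windows of sparse distal CpGs, 97.8%. With WT 54.0% of the unmasked sites were at 10% or less (mean of 3 libraries), against 8.48% of the masked sites. A site at 10% or less cannot fall by more than 10 points, and the part of this in the shares called was not tested. In W465A/W796A 1277 windows (18.4%) were lower than WT, against 23.5% of all windows. W465A/W796A was higher than W465A in 2374 windows (34.1%), against 25.4% of all windows, and W464A/W465A/W796A was lower than W465A/W796A in 3843 (55.2%), against 66.9%. The rise of W465A/W796A over W465A was called in 1526 masked windows (51.7%) and 848 unmasked windows (21.2%). The median difference was 24.1 points in masked and 6.20 points in unmasked windows.

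These counts rest on single libraries. Shares of all windows are not given with a library left out or by limma, so such counts are not set against the background. The 1277 windows in W465A/W796A became 0 without WT replicate 2, 2230 without WT replicate 1, 810 without WT replicate 3, 2089 without W796A replicate 1, 304 without W465A/W796A replicate 2 and 35 without its replicate 3. The 2374 windows of W465A/W796A over W465A became 0 without W465A replicate 3 or W465A/W796A replicate 1, 1112 without W465A/W796A replicate 3 and 323 without W465A replicate 2. The 3843 windows became 2123 without W465A/W796A replicate 1 and 2223 without W464A/W465A/W796A replicate 1. By limma the first 2 counts were 212 and 1201.

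The rise of W465A/W796A above what the single substitutions add up to was called in 837 windows (12.03%), against 1.99% of all windows, and a shortfall in 1 window, against 0.00311%. Of the 837 windows 743 were masked (25.2% of masked windows) and 94 unmasked (2.35%). This call did not hold across settings. It gave 0 windows by limma (which had none of either sign), 0 without the squeezing of the dispersion, and 0 without WT replicate 2, W465A replicate 3, W464A/W465A replicate 1 or W465A/W796A replicates 1 or 3. Counts of both signs were 2158 without WT replicate 1, 1384 without WT replicate 3, 3460 without W796A replicate 2 and 1647 without W465A replicate 1. They were 294 without W796A replicate 3, 237, 159 and 91 without W464A/W465A/W796A replicates 1, 2 and 3, 135 without W464A/W465A replicate 2 and 1 without W796A replicate 1, W465A replicate 2 or W464A/W465A replicate 3. What part single libraries or the masked sites had in this call was not tested.

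Between W796A and WT 0 windows of distal CpG-dense sites were called by the quasi-binomial fit, against 0.00249% of all windows, and 1549 (22.3%) had an unadjusted p under 0.05, against 5.62% of all windows. Of these 1142 were lower in W796A, 1039 of them masked, and 407 were higher, 401 of them unmasked. Limma called 0, with 463 at an unadjusted p under 0.05. The median difference was -12.8 points in masked and 0.263 points in unmasked windows. Pooled levels weight WT replicate 2, the deepest and most methylated WT library, more than a mean of libraries does. Without WT replicate 3, 21 windows were called higher and 254 lower, and without W796A replicate 1, 35 higher and 2 lower. The shares of all windows under these settings and by limma are not given.

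**Figure D4:**
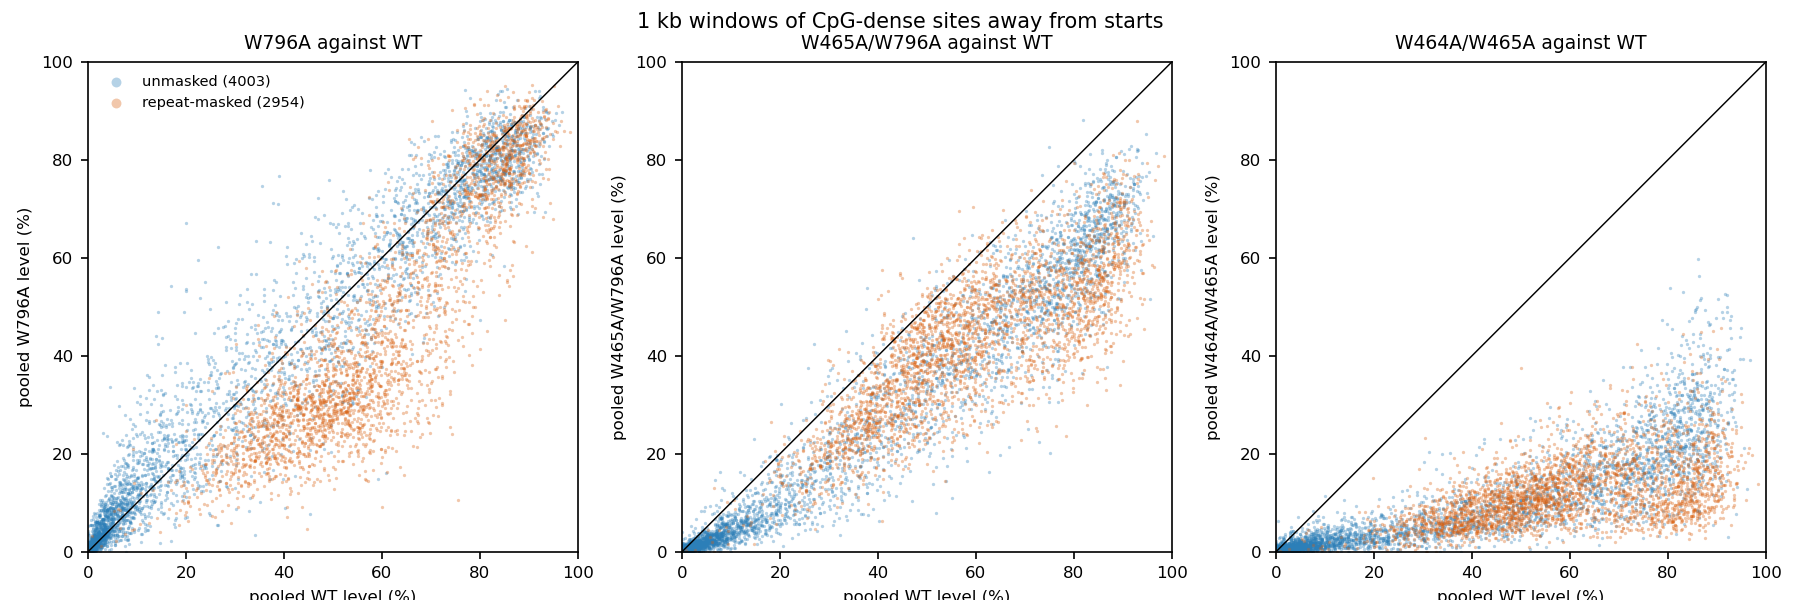
Pooled methylation level (percent) of 6957 windows of 1 kb with WT (x axis) and with W796A, W465A/W796A or W464A/W465A (y axis). Each point is a window, coloured by repeat masking, and the line marks equal levels. In W464A/W465A nearly all windows lie below the line, and in W796A masked windows of middle level lie below it, with a median masked difference of -12.8 points, while unmasked windows lie on both sides.

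No window was called in 3 further comparisons. W464A/W465A against W465A had 0 windows, against 0% of all windows. Limma also gave 0, and the unadjusted p was under 0.05 in 379 (5.45%), against 8.18% of all windows. W464A/W465A/W796A against W464A/W465A had 0, against 0%, with 74 (1.06%, against 1.24% of all windows) unadjusted and 0 by limma. The W796A difference in W465A was set against that in W464A/W465A, also on the log odds. There 0 windows were called, against 0%, with 823 (11.8%, against 20% of all windows) unadjusted and 0 by limma. Without W796A replicate 1 there were 49.

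Among 3215 windows with at least 8 sites, candidates were those called lower in W464A/W465A whose libraries did not overlap with WT. The 4 largest falls among them were all in repeat-masked sequence. Masked sites also had the higher level with WT in every library. Near Rpia (chr6:70695001-70696000, 69908 bp from Rpia, 10 sites, 80% masked) the WT libraries had 86.7%, 95.6% and 93.1% and the W464A/W465A libraries 8.59%, 13.2% and 3.68%, a pooled difference of -84.1 points (adjusted p 1.03e-06). The groups did not overlap, which the choice of these windows required. W465A/W796A had 74.5%, 63.1% and 62.0% there and W465A 25%, 15.4% and 16.2%. The other 3 windows lie 66931 bp from Dynap on chromosome 18, in an intron of Ankrd22 and 135288 bp from Ptger4, the gene of a prostaglandin receptor, with pooled differences of -84.7, -83.5 and -82.8 points.

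The most methylation in W464A/W465A, among 660 windows of at least 8 sites at 50% or more in every WT library, was kept in coding exons in 3 of the 4 windows taken. The share of coding exons among the 660 windows is not given, so this describes these 4 windows only. The window in Zc3h13 (chr14:75331001-75332000, 8 sites, unmasked) had 50.9%, 54.8% and 42.9% in W464A/W465A and 41.2%, 38.3% and 42.6% in W464A/W465A/W796A. Its WT libraries had 88.4%, 94.5% and 82.3%. Zc3h13 encodes a protein of the RNA m6A methylation machinery. All 3 W464A/W465A libraries still lay below WT, with a difference of -38.7 points (adjusted p 4.83e-06). The windows in coding exons of Ksr2 and Rbm47 had 40.2% ± 11.7 (SD, n = 3) and 41.1% ± 9.33 (SD, n = 3) in W464A/W465A, and a masked window in an intron of Vrk1, a kinase gene, 43.7% ± 10.7 (SD, n = 3). In Rbm47, an RNA-binding protein gene, the difference from WT was -40.0 points and its adjusted p rose from 0.0112 to 0.0527 without WT replicate 2 and to 0.0547 without W464A/W465A replicate 3.

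The largest rises of W465A/W796A over W465A were taken among called windows whose libraries did not overlap. They lay in 3 masked intergenic windows and in a coding exon of Disp1, which acts in the release of Hedgehog proteins. In Disp1 (chr1:183089001-183090000, 9 sites, unmasked) the W465A/W796A libraries had 78.4%, 77.8% and 82.2% and the W465A libraries 30.2%, 12.8% and 32.3%, a difference of 53.4 points (adjusted p 0.0118). With WT they had 76.3%, 91.1% and 95.6%, so W465A/W796A lay inside the range of WT. W464A/W465A/W796A had 29.4%, 17.3% and 37.3%. Near Fam84a (448051 bp away) the difference was 60.1 points, near Gm30302 54.2 points and near Itga8, an integrin gene, 53.8 points. All 4 lost their call without W465A replicate 3 or W465A/W796A replicate 1, where the adjusted p was 0.0757 to 0.0799.

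For W796A against WT the 3 windows with the smallest unadjusted p and at least 8 sites are given, although none passed (adjusted p 0.0803 each). A masked window 64335 bp from Cts7 (chr13:61422001-61423000, 26 sites) had 72.5%, 79.3% and 48.5% in WT and 24.2%, 36.8% and 33.8% in W796A. It had 31.1%, 29.9% and 20.5% in W465A and 56.3%, 50% and 72.2% in W465A/W796A. A window 1137 bp from Zfp503, a zinc finger gene (chr14:21982001-21983000, 8 sites, unmasked), had 6.06%, 14.2% and 31.3% in WT and 50%, 44.9% and 33.1% in W796A. The window in Barx1, a homeobox gene (chr13:48665001-48666000, 32 sites, mostly coding), had 5.77%, 8.26% and 9.55% in WT and 15.98%, 20.1% and 15.7% in W796A. The groups do not overlap in any of the 3, which were chosen by this same contrast. All 3 passed without WT replicate 3 (adjusted p 0.00123 to 0.0174) or without W796A replicate 1 (0.0132 to 0.0415). These were the only 2 of the 18 libraries whose removal made them pass. With other libraries left out the adjusted p rose as far as 0.488 near Cts7, 0.532 near Zfp503 and 0.406 in Barx1.

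**Figure D5:**
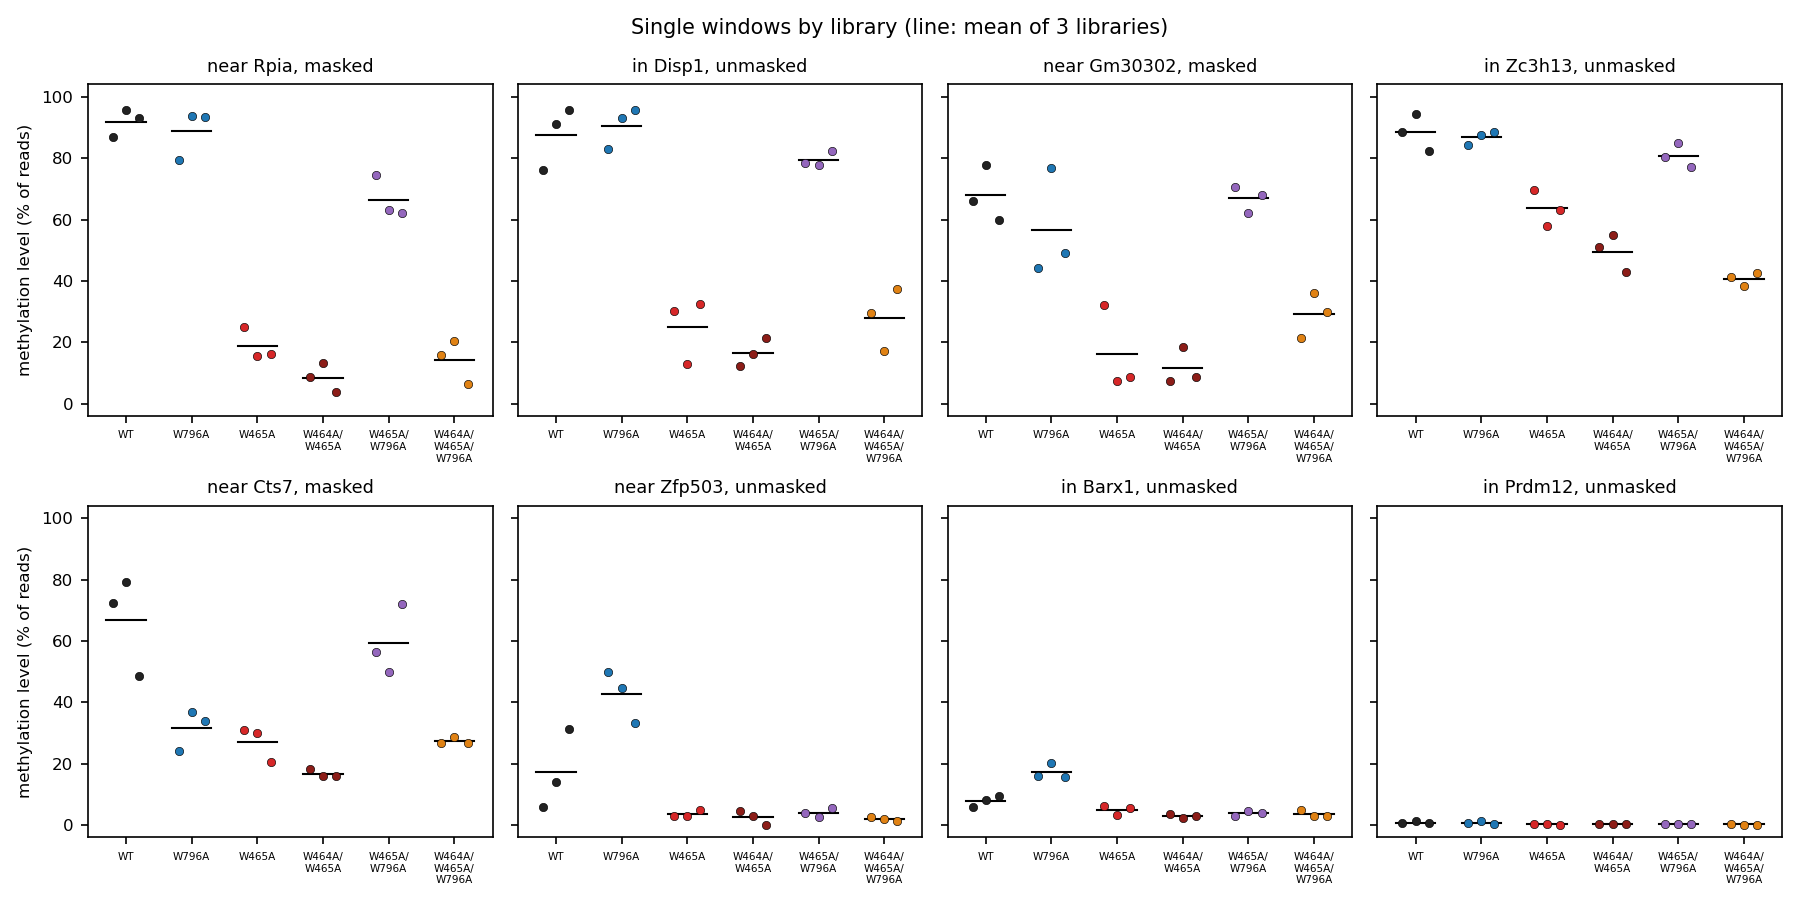
Methylation level (percent of reads) of 8 windows in each of the 18 libraries, titled by the gene they lie in or near and by masking. Points are libraries and lines are means of 3. Near Rpia and in Disp1 the W465A/W796A libraries lie above all W465A libraries, which the choice of the Disp1 window required. In Zc3h13 W464A/W465A keeps 42.9% or more. Near Cts7 W796A is below WT, and near Zfp503 and in Barx1 it is above WT, in windows chosen by the smallest p of this contrast. In Prdm12 every library is near 0.

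Windows with little methylation in every library were common. Among windows with at least 8 sites 515 were at or under 5% in all 18 libraries. The 80 sites in Rims1 had 0.266%, 0.672% and 0.276% with WT and 0.204%, 0.471% and 0.0923% with W464A/W465A, which overlap. The 80 sites in Prdm12, a transcriptional regulator of sensory neurons, had at most 1.27% in any library. Its WT libraries had 0.569%, 1.22% and 0.622% and its W464A/W465A libraries 0.336%, 0.356% and 0.222%, which do not overlap. The pooled difference was -0.66 points (adjusted p 0.00687), under the 10 points that a call needs.

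The longest runs were lowly methylated too. The run in Cilp2 (chr8:69881381-69882696, 149 sites, all coding) had 6.15%, 16.5% and 7.58% with WT, 7.95%, 20.2% and 12.6% with W796A and 3.13%, 2.30% and 2.24% with W464A/W465A. The run of 124 coding sites in Dact3, a gene of Wnt pathway regulation, had 7.004% ± 3.43 (SD, n = 3) with WT, 2.06% ± 0.504 (SD, n = 3) with W465A and 7.70% ± 0.786 (SD, n = 3) with W465A/W796A. The run over the 3′ end of Isl2 and beyond (chr9:55545221-55546558, 76 sites) had 7.20%, 9.49% and 5.77% with WT and 14.6%, 26.6% and 16.6% with W796A, all above WT. With W465A it had 2.97% ± 0.268 (SD, n = 3) and with W465A/W796A 5.51% ± 1.63 (SD, n = 3). The run of 62 sites 16370 bp from Grip2 stayed at or under 1.72% in every library. Runs were not tested.

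Gene lists chosen with earlier results of these data known were read as levels only, without a test. Of 195 homeobox and other developmental transcription factor genes 68 held sites, 1726 in all. Their WT level was 9.35% ± 2.93 (SD, n = 3), against 13.2% ± 3.30 (SD, n = 3) with W796A, 4.89% ± 0.120 (SD, n = 3) in W465A/W796A and 2.62% ± 0.239 (SD, n = 3) in W464A/W465A. The genes with most sites were Foxo6, a forkhead factor gene, at 8.07%, 14.7% and 11.9% in WT and 11.1%, 18.2% and 14.6% in W796A, and Lhx5, a LIM-homeobox gene, at 3.62%, 7.09% and 8.001% in WT and 7.20%, 13.8% and 9.72% in W796A. In both genes W796A overlapped WT. Of 57 clustered protocadherin genes, which encode neuronal cell adhesion proteins, 36 held sites, 85 in all, at 31.9% ± 9.57 (SD, n = 3) in WT, 3.57% ± 1.53 (SD, n = 3) in W464A/W465A and 16.7% ± 1.78 (SD, n = 3) in W465A/W796A. The Pcdha genes share exons, so their values are not independent.

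Of 392 zinc finger Zfp genes 68 held 1426 sites, with 29.1% ± 6.99 (SD, n = 3) in WT and 5.99% ± 0.621 (SD, n = 3) in W464A/W465A. The median of the 68 genes was 44.9% in WT, with 31 genes at 50% or more and 14 at 10% or less. The 2 genes with most sites, Zfp697 and Zfp316, were among the low ones, with 2.71% ± 1.18 (SD, n = 3) and 1.12% ± 0.562 (SD, n = 3) in WT. Zfp316 had 3.97% ± 1.74 (SD, n = 3) in W796A, with all 3 libraries above WT. Of 31 imprinted genes 5 held 42 sites. The 16 sites in Gnas had 6.83% ± 1.73 (SD, n = 3) in WT and 1.82% ± 1.58 (SD, n = 3) in W464A/W465A. The 12 sites in Trappc9 had 74.6% ± 7.99 (SD, n = 3) in WT, 53.3% ± 11.5 (SD, n = 3) in W465A/W796A and 14.2% ± 4.63 (SD, n = 3) in W464A/W465A. Of 23 germline genes only Tdrd9 held a site, a single masked CpG that is not compared.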

How the data were processed

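For each CpG and library the table deposited by the authors holds 2 whole numbers without normalization, the count of methylated reads and the total count, and all 36 count columns were used. The submitters' processing notes name cutadapt 1.2.1, Bismark 0.18.1, Bowtie 1.2 and the builds mm10 and GRCm38, without their roles. Removal of duplicates is not given in the sources used here. The listed positions were checked against every CpG of GRCm38, and lower-case bases of that genome were taken as repeat-masked.

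Members, gene lists, naming rule and tests were chosen with earlier results of these data known, and the splits by masking and by copies were added after seeing the data. Library means of the level entered exact permutation tests (two-sided), stratified by background for the 4 effects. Windows of 1 kb were split by CpG class, and summed counts were fitted over all 18 libraries by a quasi-binomial logistic model with dispersion squeezed across all windows (method of limma's squeezeVar), followed by an F test with Benjamini-Hochberg adjustment over all 160689 windows. All adjusted p-values of windows are from this fit. It was tested on simulated data, where more unchanged windows than the nominal share had an unadjusted p under 0.05. Limma 3.58.1 in R 4.3.3, on log2 ratios of counts with 0.5 added, was an alternative. Other alternatives were minimums of 10 and 20 reads, unmasked CpGs only, other densities and distances, 500 bp windows, other minimums for calls, no squeezing, leaving out each library and a replicate block. Python 3.11.15, scipy 1.17.1 and numpy 2.4.6 were used.

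Named windows have at least 8 sites. They include the 4 with the largest fall in W464A/W465A and the 4 with the largest rise of W465A/W796A over W465A. Both sets were taken among called windows whose libraries do not overlap. The others are the 4 most methylated in W464A/W465A among those at 50% or more in every WT library, the 3 with the smallest p for W796A, and the 2 with the most sites at or under 5% in all libraries. Named runs are the 2 longest inside and the 2 longest between genes, and named genes are the 2 with the most sites of each list. A window outside a gene is named by the nearest protein-coding gene. The sequences shown are from the RefSeq GRCm38 genome. The 2547 sites in windows with fewer than 3 sites entered the mean levels and not the windows.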

Additional observations from a re-analysis of the deposited data

Results flagged for a closer look

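The departure of W465A/W796A from additivity is a difference of the W796A effect between the WT and W465A backgrounds. It was tested directly in each window on the log odds of methylation, not in points. It was called with W465A/W796A above the sum of the single effects in 837 windows and below it in 1 window of the 6957. The count fell to 0 by limma and without any of 5 single libraries, among them WT replicate 2 and W464A/W465A replicate 1, and W464A/W465A replicate 1 enters this fit only through the shared spread.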

How the results depend on the processing

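Depth limits the windows: with a minimum of 10 reads 3410 windows remained, and the counts were 2303 for W465A, 2363 for W464A/W465A, 468 for W465A/W796A and 2350 for W464A/W465A/W796A against WT, 934 for W465A/W796A over W465A and 1600 for W464A/W465A/W796A under W465A/W796A. Fewer windows were tested there, and the shares of all windows under this and the next settings are not given. For W465A/W796A against WT, W465A/W796A over W465A and the departure from additivity, in this order, there were 628, 993 and 0 windows without squeezing and 212, 1201 and 0 by limma. A replicate block in limma gave 174, 1094 and 2 and moved no other count of calls by over 1.5 times. Over 15 pairs of groups the deviations of same-numbered libraries correlated between -0.128 and 0.129, and in 0 pairs was every correlation above 0.1, so the numbers were not taken as pairs. With at least 1 usable CpG per window the departure gave 0, and with 500 bp windows W796A against WT gave 2.

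Of the mean-level tests, W465A did not pass at 20 reads (-9.27 points) or over 5000 bp from a start (-16.0). Intergenic minus intragenic passed for the added W464A at 10 reads (-1.15) and 20 reads (-2.999) and for W464A/W465A at 20 reads (-5.60), and turned to 9.76 at unmasked CpGs. Against dense CpGs near starts, W465A passed in points at 10 reads (-11.2), 20 reads (-8.22) and at unmasked CpGs (-10.2), and the added W464A on the log2 scale at 10 reads (-0.18) and 20 reads (-0.27). At unmasked CpGs the log2 difference from sparse CpGs passed for W464A/W465A (-0.25) and W796A (0.18). Copied minus single-copy passed for W464A/W465A at 20 reads (-13.9). The cause of these changes was not tested. The other 255 values of mean-level tests under such settings kept their side of the threshold, and 82 window counts stayed within 1.5 times. Some of the 255 that passed in neither setting changed sign. Intergenic minus intragenic at unmasked CpGs was 5.30 points for W465A and 4.47 points for the added W464A, against -0.32 and -0.99 points at all sites.

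Leaving out each library in turn, the W465A effect ranged from -16.9 to -12.7 points and the added W464A from -10.5 to -8.43. Against dense CpGs near starts W465A ranged from -14.6 to -10.9 and the added W464A from -9.64 to -7.77, or -0.18 to -0.12 on the log2 scale. On the log2 scale W796A against sparse CpGs ranged from 0.17 to 0.24, and masked minus unmasked for the added W464A from -0.13 to -0.042. Copied minus single-copy ranged from -6.89 to -5.00 for the added W464A. Window counts ranged from 0 to 275 for W796A, 0 to 2230 for W465A/W796A, 0 to 3288 for W465A/W796A over W465A, 2123 to 4130 for W464A/W465A/W796A under W465A/W796A, 0 to 3460 for the departure and 0 to 49 for the W796A difference between backgrounds.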

Other observations

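The 12890 repeat-masked sites with a single copy of their sequence (the CpG and 50 bp on either side) had 58.9% ± 9.92 (SD, n = 3) with WT, 51.5% ± 11.7 (SD, n = 3) with W796A, 42.4% ± 5.90 (SD, n = 3) with W465A/W796A and 12.6% ± 2.00 (SD, n = 3) with W464A/W465A. They were above unmasked sites in these groups, as were the copied sites. The 130 sites in CCGG had 16.2% ± 3.41 (SD, n = 3) with WT and 3.04% ± 0.485 (SD, n = 3) with W464A/W465A.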
